A study of Homo sapiens with 4 samples.

Results

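The genes described here are 54 genes of mitosis and the G2/M transition, chosen by name from a list of cell division genes and all found among the 58735 genes measured in the uveal melanoma line OMM2.3. These genes, their role groups and the other lists below were chosen with earlier results of these data known. Shares of all genes set beside them are therefore descriptions and not tests. RNA was sequenced from 4 libraries, with 1 library per group and no replicates. Cells of the control group received neither compound, as far as the labels say. In the others the cells received CCCP (carbonyl cyanide m-chlorophenyl hydrazone, a protonophore that collapses the mitochondrial membrane potential), DHA, or both compounds, here called the combination. All 4 groups were the same cell line, grown with 10% fetal bovine serum. DHA is written only as this abbreviation in the labels. The sources used here state no dose, exposure time or vehicle. Levels are FPKM, fragment counts scaled by exon length and library size, as the authors deposited them. Of the 54 genes, 53 reached 1 FPKM in at least 1 library, which was the minimum for a gene to be counted, as did 13678 of all genes.

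Cells enter mitosis when cyclin B bound to the kinase CDK1 becomes active, and leave it when the anaphase-promoting complex (APC/C) marks cyclins and securin for destruction. In between, motor proteins of the kinesin family build the spindle, kinetochores attach chromosomes to it, the spindle checkpoint holds back the APC/C until all are attached, and a contractile ring then splits the cell. Most of these genes are transcribed in late S phase and G2, so in a growing culture their transcripts come from the dividing fraction of the cells. The MuvB complex, with B-MYB and FOXM1, drives this transcription through promoter elements named the cell cycle genes homology region (CHR), and the factor NF-Y acts at nearby CCAAT boxes.

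The libraries held 16900411 to 18937286 reads in genes, the deepest being control. Of 8 melanocyte lineage markers, MITF, GPR143 and PMEL reached 1 FPKM, whereas MLANA, TYR, DCT, TYRP1 and SOX10 did not. No marker of 5 for leukocytes or of 4 for endothelial cells reached it. The fibroblast markers FAP, PDGFRB and COL1A1, 3 of 5, were expressed, and the summed level of the 5 was 32.4 FPKM untreated, 20.3 after CCCP, 18.5 after DHA and 8.97 after both. Epithelial keratins KRT8 and KRT18 were expressed, 2 of 4 epithelial markers, with a summed level over the 4 of 375, 298, 344 and 267 FPKM in the same order. The part of these shifts in the results below was not tested.

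The main pattern was a low level of nearly the whole group with the combination and smaller differences from control, mostly lower, with either compound alone. The 53 measured members summed to 1350.2 FPKM untreated, 1248 after CCCP, 1168 after DHA and 583 after both. Their reads made up 0.615, 0.555, 0.524 and 0.273% of each library in that order. The combination was the lowest of the 4 libraries for 52 of 53 members, and the exception was the checkpoint gene BUB3. Control was the highest library for 34 members, CCCP for 15 and DHA for 4. The shares of all genes tested for which each library was lowest or highest were not computed. Ratios are given either as log2 of (FPKM + 0.5), which understates differences of low genes, or as folds of FPKM with an exact 95% Clopper-Pearson interval from reads recovered from the values. These intervals cover counting error only, and with 1 library per group no spread between cultures could be measured. In bulk RNA, fewer dividing cells and less transcript per dividing cell cannot be told apart.

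**Figure D1:**
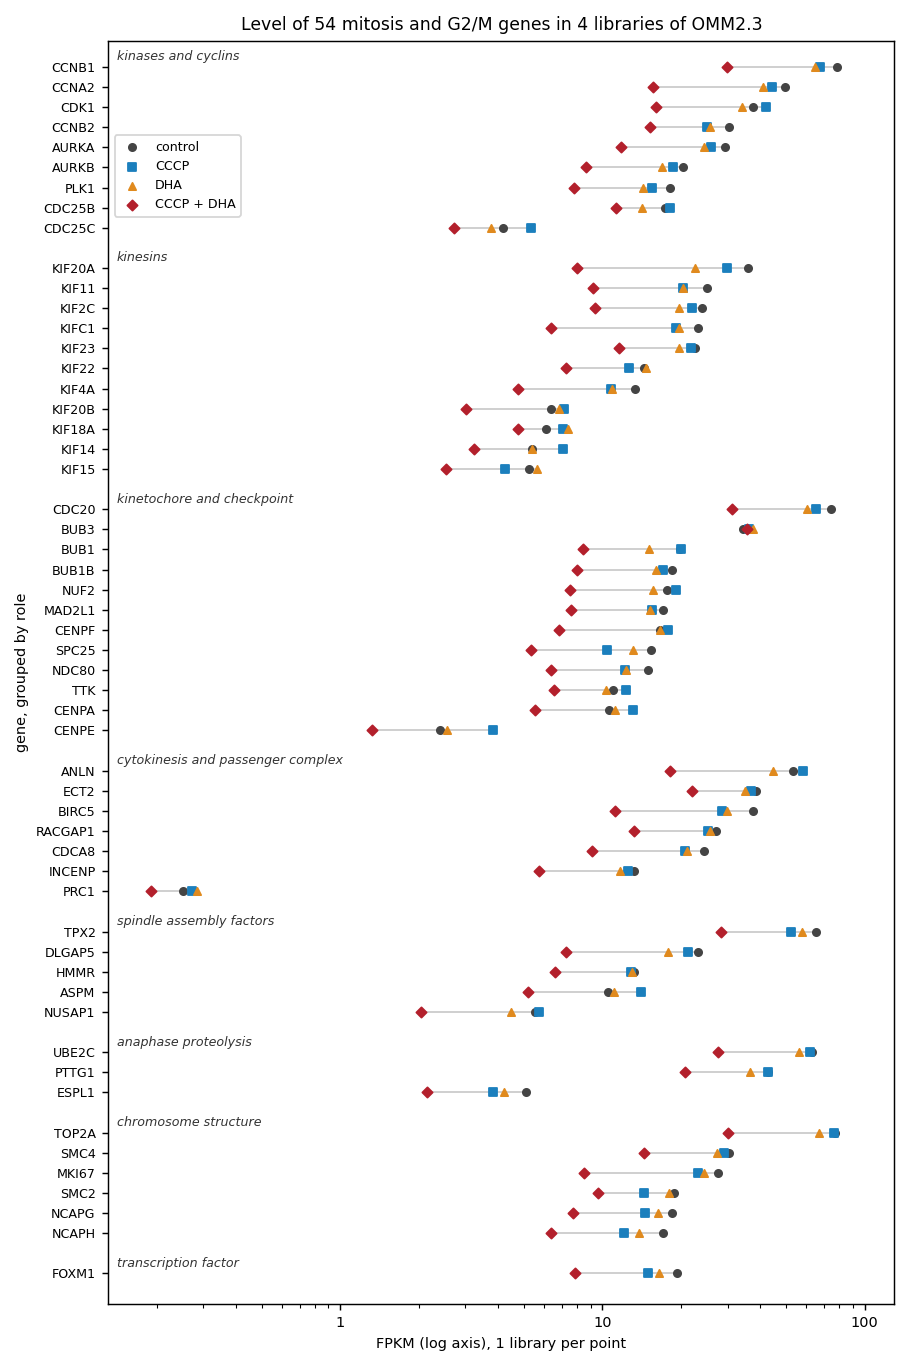
Level of each of the 54 genes in FPKM (log axis) in the control, CCCP, DHA and CCCP + DHA libraries, 1 point per library, with genes grouped by role and ordered by control level; the grey line spans the 4 libraries. The red diamonds of the combination lie at the left end for every gene but BUB3, and PRC1 lies below 1 FPKM throughout.

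With the combination, 36 of 53 members were at least 2-fold lower than control, against 5.44% of all genes tested and 3.73% of the protein-coding ones. The median log2 ratio of the members was -1.17 and that of all genes 0.01. The members ranged from -2.11 (KIF20A) to 0.05 (BUB3). Closest to the 2-fold line were RACGAP1 at -1.02 and PTTG1 at -1.03 on the lower side, and CCNB2 at -0.99 and KIF20B at -0.97 on the other. The counting interval lay below control for 52 members, against 29.3% of all genes and 33.5% of protein-coding genes. These interval shares depend on depth, and members had a median of 1676 reads in control against 465.5 for all genes and 663 for protein-coding genes.

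With CCCP alone, 0 of 53 members were at least 2-fold lower than control, against 2.32% of all genes and 0.569% of protein-coding genes. The median log2 ratio was -0.12, with 36 members below control and 17 above it. Of the 13678 genes tested, 6748 lay below control and 6828 above it. Beyond counting error, 29 of 53 were lower, against 25.8% of all genes and 29.7% of protein-coding genes. In the other direction 12 were higher, where 25.8% of all genes and 28.5% of protein-coding genes were. With DHA alone, 0 of 53 were at least 2-fold lower, against 1.86% of all genes and 0.0734% of protein-coding genes. The median was -0.19, with 44 below control and 9 above it, where 6700 of all genes tested lay below and 6824 above. Beyond counting error 38 were lower, against 17.2% of all genes and 19.6% of protein-coding genes. KIF18A and BUB3, 2 of 53, were higher, against 18.1% and 20.1%. Rescaling the libraries to equal totals moved the median of all genes to -0.09 with CCCP and -0.08 with DHA. The members' median with CCCP was then -0.23, and 10 members, not 17, lay above control with CCCP and 2, not 9, with DHA.

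**Figure D2:**
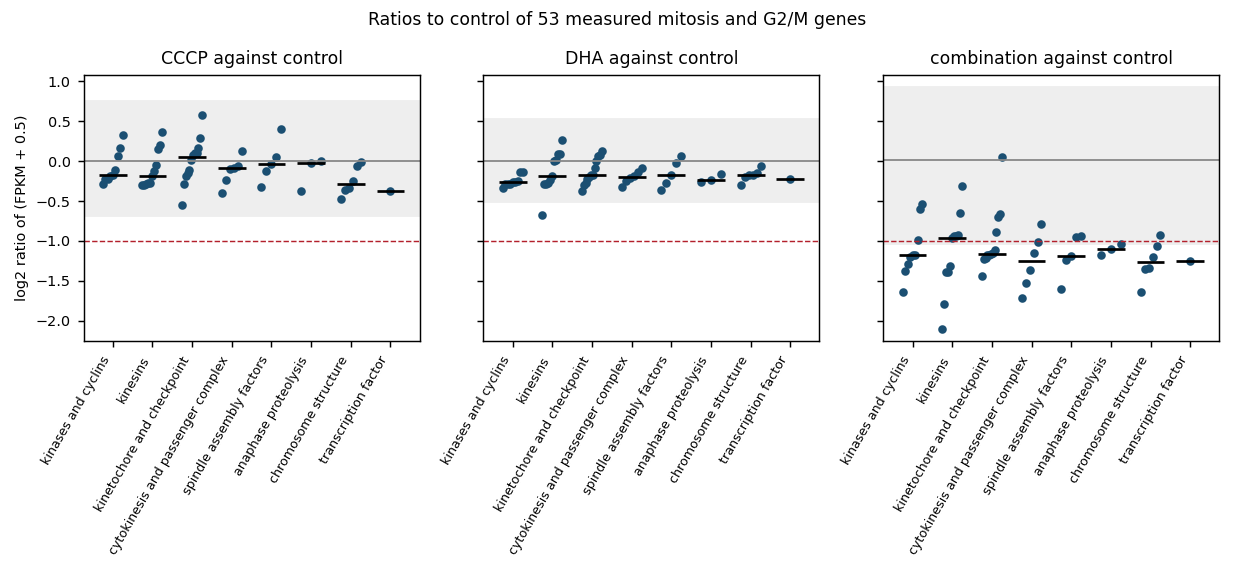
Log2 ratio of (FPKM + 0.5) to control for the 53 measured genes by role, in 1 panel each for CCCP, DHA and the combination. Points are genes, black bars role medians, the grey line and band the median and the 5th to 95th percentile of all genes tested, and the dashed red line 2-fold lower; 36 genes lie on or below that line with the combination and 0 with either compound alone.

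The combination library can also be set against each single compound, which shares that library with the comparison above. Against CCCP alone, 30 of 53 members were at least 2-fold lower (4.94% of all genes and 2.85% of protein-coding genes), and their median log2 ratio was -1.05. Against DHA alone, 26 were (3.63% of all genes and 1.96% of protein-coding genes), with a median of -0.97. The latter count was 17 with a pseudocount of 1 FPKM and 14 with libraries scaled to equal totals, and 14 members had an interval wholly below 0.5-fold.

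Departure from additivity is the log2 ratio of the combination to control less the sum of the 2 single-compound ratios. All 53 measured members lay below 0, where 50.3% of all genes tested did. The median was -0.84 for the members and 0.00 for all genes, whose 5th percentile was -0.94. Without the pseudocount the member median was -0.87, so that the combination stood at 0.547 of the level that multiplying both single ratios gives. Counting intervals lay below 0 for 53 of 53, against 23.8% of all genes and 26.9% of protein-coding genes. For 12 of 53 members the level with CCCP alone was above control and that with the combination below DHA alone, by both intervals. This held for 4.35% of all genes and 5.15% of protein-coding genes. The same pattern with the compounds exchanged was seen for 1 member, against 2.48% and 2.93%. For all 53 members, however, the combination lay below DHA alone by its interval. The 12 are therefore all the members above control with CCCP beyond counting error, 22.6% against 25.8% of all genes. With equal totals the members' median departure was -0.66 and that of all genes 0.16, and 52 of 53 members lay below 0.

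**Figure D3:**
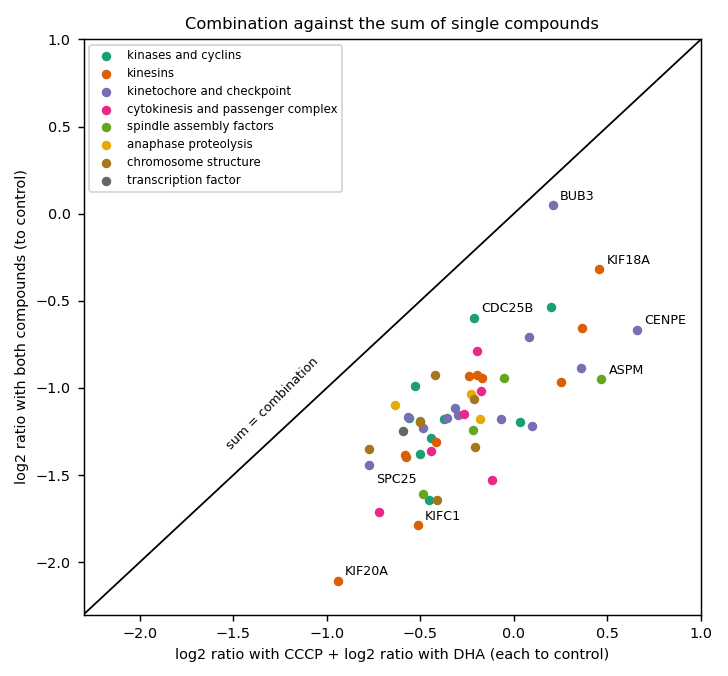
Log2 ratio of the combination to control (vertical) against the sum of the log2 ratios of CCCP and DHA to control (horizontal), 1 point per gene coloured by role; the black line marks equal values. All 53 points lie below the line, BUB3 closest to it at -0.16.

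The design allows 1 test, an additive limma-trend fit in which each compound is present in 2 of 4 libraries. The departure from additivity serves as the spread, with 1 residual degree of freedom. Each coefficient is the mean of a compound's log2 ratio without and with the other compound, so the combination library enters both. The members' median coefficient was -0.55 for CCCP and -0.62 for DHA, against -0.12 and -0.19 with each compound alone. All 53 members departed from additivity, so a member called lower for a compound need not be lower with that compound alone. For CCCP, 0 of 53 members passed a Benjamini-Hochberg adjusted p of 0.05, as did 0.095% of all genes, and the lowest adjusted p was 0.14 (SPC25, log2 -0.88, SE 0.19). For DHA 0 of 53 passed, against 0.102% of all genes, with a lowest adjusted p of 0.245 (KIF20A, log2 -1.25, SE 0.27). At an unadjusted p under 0.05, 27 members were lower for CCCP (14.5% of all genes, either direction) and 38 for DHA (12.1%). Voom on the recovered reads called 30 members lower for CCCP (5.49% of all genes) and 32 for DHA (4.98%). With equal totals limma-trend called 13 members for CCCP and 11 for DHA, and its calls over all genes were 3.79% and 2.99%. The number of calls thus differed between these fits, and no member is called changed here.

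Promoters are shown for members at both ends of the range with the combination, since CCAAT boxes and CHR elements are known from many G2/M promoters. Sequences are the 250 bases before the annotated start from RefSeq on GRCh38.p14, 5′ to 3′ on the gene's strand. Capitals mark the CCAAT box and the 2 forms of the CHR searched for, TTTGAA or else TTCGAA, on either strand, so that a box on the opposite strand reads ATTGG here. KIF20A (chr5:138178862-138179111, plus strand) and KIFC1 (chr6:33391573-33391822, plus strand) are the members with the lowest ratios of the combination to control among those with an entry and a mean of at least 5 FPKM. CDC25B (chr20:3786701-3786950, plus strand) and KIF18A (chr11:28108157-28108406, minus strand) are those with the highest. CDC25B has 4 entries, and the start nearest to that of the gene model was taken. MKI67 (chr10:128126424-128126673, minus strand) and DLGAP5 (chr14:55191586-55191835, minus strand) were added after their values were seen, as the lowest ratios among members that hold both kinds of motif.
KIF20A promoter: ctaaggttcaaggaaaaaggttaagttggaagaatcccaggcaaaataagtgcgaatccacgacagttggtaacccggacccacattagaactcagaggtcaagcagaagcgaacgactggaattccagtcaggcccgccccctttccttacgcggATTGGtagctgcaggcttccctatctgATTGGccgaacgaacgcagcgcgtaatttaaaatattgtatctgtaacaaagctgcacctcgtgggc
KIFC1 promoter: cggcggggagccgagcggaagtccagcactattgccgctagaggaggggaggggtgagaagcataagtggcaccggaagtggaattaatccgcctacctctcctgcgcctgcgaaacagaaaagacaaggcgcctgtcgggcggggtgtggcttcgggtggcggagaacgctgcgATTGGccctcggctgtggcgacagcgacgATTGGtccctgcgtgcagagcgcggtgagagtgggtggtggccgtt
CDC25B promoter: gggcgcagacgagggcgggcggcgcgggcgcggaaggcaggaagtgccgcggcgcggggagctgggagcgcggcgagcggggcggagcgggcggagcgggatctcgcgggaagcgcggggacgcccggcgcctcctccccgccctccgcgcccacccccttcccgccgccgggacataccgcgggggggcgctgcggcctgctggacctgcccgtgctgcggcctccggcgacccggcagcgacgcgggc
KIF18A promoter: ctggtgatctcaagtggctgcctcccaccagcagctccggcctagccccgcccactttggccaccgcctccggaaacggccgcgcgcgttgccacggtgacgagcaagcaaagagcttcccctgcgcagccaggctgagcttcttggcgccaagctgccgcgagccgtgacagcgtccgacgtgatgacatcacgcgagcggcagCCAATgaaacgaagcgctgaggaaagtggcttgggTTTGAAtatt
MKI67 promoter: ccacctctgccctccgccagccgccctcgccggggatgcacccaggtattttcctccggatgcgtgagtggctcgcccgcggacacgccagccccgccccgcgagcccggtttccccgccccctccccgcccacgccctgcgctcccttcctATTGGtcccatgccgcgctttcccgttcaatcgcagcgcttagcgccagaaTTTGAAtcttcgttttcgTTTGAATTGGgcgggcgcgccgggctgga
DLGAP5 promoter: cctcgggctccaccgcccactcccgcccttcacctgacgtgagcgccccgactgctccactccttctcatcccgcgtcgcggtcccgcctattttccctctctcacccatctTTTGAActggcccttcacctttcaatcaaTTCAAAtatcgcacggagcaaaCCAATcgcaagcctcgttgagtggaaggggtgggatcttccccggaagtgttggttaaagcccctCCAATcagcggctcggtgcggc

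KIF20A and KIFC1 each hold 2 CCAAT boxes, all on the opposite strand. Neither holds 1 of the 2 CHR forms searched for in this window. Both windows lie wholly inside the gene model used here, which starts at 138178719 for KIF20A and 33391536 for KIFC1. Bases before these gene-model starts were not searched. The windows of CDC25B, KIF18A and DLGAP5 lie partly inside their gene models. In KIF20A the boxes begin 94 and 67 bases before the start, and in KIFC1 75 and 46. KIF18A has 1 CCAAT box 45 bases before the start and TTTGAA 10 bases before it. MKI67 and DLGAP5 each have 2 matches of both kinds. In MKI67 the TTTGAA nearer the start shares a base with a box on the other strand. The CDC25B window holds no match.

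RefSeq entries were matched for 46 of the 54 genes. With 1 window per gene, 34 (73.9%) held CCAAT on either strand, against 32% of all 35116 windows of this length. Windows with 2 or more CCAAT boxes made up 43.5% among the members and 9.53% among all. TTTGAA was in 25 member windows (54.3%), against 13.3% of all windows, and TTCGAA in 1 (2.17%), against 1.19%. Both CCAAT and 1 of the other 2 motifs were in 21 windows (45.7%), against 5.05% of all. The windows of all genes include several per gene and genes not expressed here. Over all 59 windows of the members, 69.5% held CCAAT and 47.5% TTTGAA, against 32.7% and 8.85% of windows of genes tested. Matches overlapped each other in 4 of the 46 windows. These are counts of letters and not of bound sites. Among the 45 of these members that were measured, medians of the log2 ratio of the combination to control were compared by motif. The median was -1.15 in the 25 with either CHR form searched for and -1.18 in the 20 without. Other forms of the CHR and bases after the start were not searched, so genes without a match here may still hold such a site. For CCAAT it was -1.18 in 33 with and -1.11 in 12 without.

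Among kinases, cyclins and phosphatases, all 9 lay below control with the combination and 6 were at least 2-fold lower, and their median log2 ratio was -1.18. CCNA2, which encodes cyclin A2 of S phase and G2, was at 49.9 FPKM untreated, 44.3 after CCCP, 40.9 after DHA and 15.6 after both, a 3.19-fold (2.95 to 3.47) lower level. The single-compound libraries lay somewhat below control and the combination far below all of them. CCNB1, the main cyclin partner of CDK1 in mitosis, was at 78.5, 67.3, 64.5 and 29.9 FPKM in the same order and was 2.62-fold (2.47 to 2.8) lower. Its paralog CCNB2 was 2.02-fold (1.85 to 2.2) lower in FPKM but missed the 2-fold line on the log2 scale (-0.99). CDC25C, a phosphatase that activates CDK1, was at 4.16, 5.34, 3.76 and 2.71 FPKM and was 1.53-fold (1.26 to 1.88) lower, with CCCP as the highest library. Its log2 ratio to control was the highest of the 9. The related phosphatase gene CDC25B was lower by nearly the same factor, 1.54-fold (1.41 to 1.67). CDK1 itself was 2.33-fold (2.17 to 2.5) lower with the combination but 1.13-fold (1.07 to 1.19) higher with CCCP alone. PLK1, the kinase of centrosome maturation and mitotic entry, AURKA, which acts at spindle poles, and AURKB, which corrects attachments at kinetochores, were lower by factors of 2.33 (2.13 to 2.56), 2.5 (2.28 to 2.75) and 2.34 (2.06 to 2.66). With DHA alone all 9 genes lay below control, by a median log2 ratio of -0.26.

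The 11 kinesins had the widest range of the role groups with the combination. All lay below control with the combination, 5 at least 2-fold on the log2 scale, and their median log2 ratio was -0.97. KIF20B and KIF15 missed that line at -0.97 and -0.92, though their folds of FPKM were above 2. KIF20A, the first of the promoters above and a motor that carries the chromosomal passenger complex to the central spindle (chromosome 5, 138178719 to 138187715, GRCh38), was at 36 FPKM untreated, 29.8 after CCCP, 22.5 after DHA and 7.98 after both. It was 4.51-fold (4.12 to 4.96) lower with the combination, the lowest ratio of all members, and had the lowest ratio with DHA alone as well (log2 -0.67). KIFC1, a minus-end motor that clusters centrosomes, was at 23.2, 19.1, 19.6 and 6.36 FPKM and was 3.65-fold (3.25 to 4.1) lower. For these 2 genes all treated libraries lay below control. KIF18A, with 1 box and 1 CHR form in its promoter window, dampens chromosome movements at the metaphase plate. It was at 6.08, 7.04, 7.37 and 4.78 FPKM, so that both single compounds lay above control, and it was only 1.27-fold (1.11 to 1.45) lower with the combination.

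Of the other kinesins, KIF20B, a paralog of KIF20A that also acts in cytokinesis, was 2.12-fold (1.87 to 2.4) lower with the combination. KIF11, the motor that pushes spindle poles apart, the microtubule depolymerase gene KIF2C and the chromosome-bound motor gene KIF4A were lower by factors of 2.7 (2.49 to 2.93), 2.56 (2.33 to 2.82) and 2.8 (2.49 to 3.15). KIF23, the motor subunit of centralspindlin, was 1.95-fold (1.82 to 2.08) lower, KIF22, another chromosome-bound motor, 1.98-fold (1.79 to 2.2) and KIF15, which can stand in for KIF11, 2.07-fold (1.77 to 2.43). KIF14, needed for cytokinesis, was 1.66-fold (1.47 to 1.88) lower with the combination and 1.31-fold (1.19 to 1.45) higher with CCCP. Thus 3 of 11 kinesins, KIF14, KIF18A and KIF20B, lay above control with CCCP beyond counting error and 7 below it. By the same rule 25.8% of all genes lay above control and 25.8% below it (28.5% and 29.7% of protein-coding genes).

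Kinetochore and checkpoint genes stood at a median log2 ratio of -1.16 in the combination library, with 11 of 12 below control and 8 at least 2-fold lower. SPC25, a subunit of the microtubule-binding NDC80 complex, was at 15.4 FPKM untreated, 10.4 after CCCP, 13.1 after DHA and 5.35 after both, 2.87-fold (2.42 to 3.43) lower. It also had the lowest ratio of all members with CCCP alone, 0.674-fold (0.586 to 0.776). The other NDC80 subunits on the list, NDC80 and NUF2, were lower by factors of 2.34 (2.09 to 2.64) and 2.35 (2.1 to 2.63) with the combination. CDC20, the APC/C activator that the checkpoint restrains, was at 74.2, 65.1, 60.2 and 31.3 FPKM and was 2.37-fold (2.21 to 2.54) lower. BUB3, an adaptor of the checkpoint kinases (chromosome 10, 123154277 to 123170467, GRCh38), was at 34.3, 36.3, 37.6 and 35.5 FPKM. Its 4 libraries lay within a narrow range, and control was the lowest.

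The checkpoint partners of BUB3 did not share its level. BUB1, BUB1B and MAD2L1, which encode a kinase, a pseudokinase and the APC/C inhibitor MAD2, were lower by factors of 2.33 (2.16 to 2.52), 2.3 (2.09 to 2.53) and 2.24 (2.06 to 2.44) with the combination. TTK, the kinase that starts checkpoint signalling, was 1.68-fold (1.51 to 1.87) lower. CENPA, the centromeric histone, and CENPE, a kinetochore kinesin, were lower by factors of 1.92 (1.62 to 2.3) and 1.81 (1.53 to 2.14), and CENPF, a large outer kinetochore protein gene, 2.43-fold (2.28 to 2.58). With CCCP alone this group was split. CENPE was 1.6-fold (1.41 to 1.81) and CENPA 1.23-fold (1.07 to 1.41) higher than control, and CENPE had the highest CCCP ratio of all members. In all, 5 of the 12 were higher and 5 lower beyond counting error, where 25.8% of all genes were higher and 25.8% lower.

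Of the 7 genes of cytokinesis and the chromosomal passenger complex, 6 were measured, all below control with the combination and 5 of them at least 2-fold. BIRC5, which encodes the passenger subunit survivin, was at 37.6 FPKM untreated, 28.5 after CCCP, 29.9 after DHA and 11.2 after both, 3.37-fold (3.11 to 3.66) lower. The other passenger subunits, INCENP and CDCA8 (borealin), were lower by factors of 2.32 (2.08 to 2.6) and 2.66 (2.37 to 2.99). ANLN, which encodes the contractile ring scaffold anillin, was at 53.2, 58.1, 44.8 and 18.1 FPKM and was 2.94-fold (2.79 to 3.09) lower with the combination, although CCCP was its highest library. ECT2, the exchange factor that activates RhoA at the cleavage site, was at 38.5, 36.9, 35 and 22 FPKM and was 1.75-fold (1.66 to 1.84) lower. Its binding partner RACGAP1 was 2.06-fold (1.91 to 2.22) lower.

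PRC1, which bundles the central spindle (chromosome 15, 90966038 to 90995629, GRCh38), was the member below the minimum, at 0.251, 0.271, 0.284 and 0.189 FPKM on 27, 25, 27 and 18 reads. Its interval for the combination, 1.33-fold (0.706 to 2.56) lower, included 1. PRC1 shares 58.4% of its exon length with other genes, mainly with AC068831.7 on the same strand, which had 206, 164, 153 and 73 reads. The sources used here do not state how reads in shared exons were assigned, so the level of PRC1 is uncertain. NUSAP1 shares 62.2% of its exon length with AC087721.2 on the same strand, which is listed at 0 in all 4 libraries, and is uncertain in the same way. In all, 13 members shared at least 5% of their exon length with another gene. Without them, 27 of 41 measured members were at least 2-fold lower with the combination.

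Spindle assembly factors were all below control with the combination, 3 of 5 at least 2-fold on the log2 scale, and their median log2 ratio was -1.19. ASPM missed that line at -0.95, though its fold of FPKM was 2.02. DLGAP5, which stabilises kinetochore fibres, was at 23.1 FPKM untreated, 21.2 after CCCP, 17.8 after DHA and 7.25 after both, 3.19-fold (2.87 to 3.54) lower. NUSAP1, which stabilises spindle microtubules near chromosomes, was at 5.5, 5.73, 4.48 and 2.04 FPKM and was 2.7-fold (2.15 to 3.42) lower. HMMR, a spindle pole protein gene, was at 13.2, 12.9, 13 and 6.61 FPKM, equal in the first 3 libraries within counting error and 1.99-fold (1.78 to 2.23) lower in the last. TPX2, the activator of AURKA, was 2.31-fold (2.18 to 2.44) lower with the combination and 0.799-fold (0.763 to 0.836) of control with CCCP. ASPM, which acts at spindle poles, was 2.02-fold (1.87 to 2.18) lower with the combination and 1.33-fold (1.26 to 1.41) higher with CCCP, and had the lowest departure from additivity on the log2(FPKM + 0.5) scale (-1.42).

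The 3 genes of anaphase proteolysis were all at least 2-fold lower with the combination. ESPL1, which encodes the cohesin protease separase, was at 5.13 FPKM untreated, 3.83 after CCCP, 4.2 after DHA and 2.13 after both, 2.41-fold (2.12 to 2.74) lower. PTTG1, which encodes securin, the inhibitor of separase, was at 42.9, 43, 36.5 and 20.7 FPKM and was 2.07-fold (1.9 to 2.27) lower. UBE2C, the ubiquitin-conjugating enzyme of the APC/C, was at 63, 62.1, 56.4 and 27.6 FPKM and was 2.28-fold (2.08 to 2.51) lower. With CCCP alone PTTG1 and UBE2C did not differ from control beyond counting error, whereas separase was 0.747-fold (0.671 to 0.831) of it.

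Chromosome structure genes stood at a median log2 ratio of -1.27 in the combination library, all 6 below control and 5 at least 2-fold lower. MKI67, which encodes the proliferation marker Ki-67 at the surface of mitotic chromosomes, was at 27.5 FPKM untreated, 23.1 after CCCP, 24.4 after DHA and 8.47 after both, 3.25-fold (3.08 to 3.42) lower. NCAPH, a condensin I subunit, was at 17, 12.1, 13.8 and 6.38 FPKM and was 2.67-fold (2.37 to 3.02) lower. SMC2, a core ATPase of both condensins, was at 18.7, 14.4, 17.9 and 9.59 FPKM and was 1.95-fold (1.81 to 2.09) lower. Its ATPase partner SMC4 and the condensin I subunit NCAPG were lower by factors of 2.13 (2.02 to 2.24) and 2.38 (2.17 to 2.6). TOP2A, which untangles DNA, was 2.55-fold (2.45 to 2.66) lower with the combination and 0.993-fold (0.964 to 1.02) of control with CCCP. This group had all 6 members below control with CCCP, and their median log2 ratio was -0.29.

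FOXM1, the transcription factor gene on the list, was at 19.3 FPKM untreated, 14.9 after CCCP, 16.5 after DHA and 7.85 after both, 2.46-fold (2.25 to 2.69) lower. Every treated library lay below control, in the order CCCP, DHA from lower to higher and the combination lowest.

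Other genes of the same pathway, taken as lists that share no gene with the members, lay between the members and all genes with the combination. The list of APC/C subunits, which also holds the activator gene FZR1, had a median log2 ratio of -0.07, with 0 of 15 at least 2-fold lower. ANAPC15 and FZR1 were lowest at -0.84 and -0.55, and ANAPC10 highest at 0.55. Other regulators of CDK1 and of mitotic entry and exit had a median of -0.77, and 4 of 14 genes passed 2-fold on the lower side. They were led by GTSE1, a microtubule-binding protein gene, at -1.94 and the CDK subunit gene CKS2 at -1.24, with the phosphatase gene CDC14A highest at 0.39.

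The list of other kinetochore subunits, which also holds MAD2L2, not itself such a subunit, had a median of -0.66. On the lower side 3 of 17 genes passed 2-fold, with SPC24, the partner of SPC25, at -1.46, ZWINT at -1.26 and MAD2L2 highest at -0.07. Constitutive centromere proteins and CENPA loading factors had a median of -0.56, and 5 of 16 genes passed 2-fold on the lower side, with CENPM at -1.43, CENPI at -1.19 and CENPC highest at -0.12. Other condensin and cohesin subunits had a median of -0.42, and 1 of 13 genes passed 2-fold on the lower side. CDCA5 (sororin) was at -1.03, NCAPD2 at -0.99 and the cohesin gene STAG2 highest at 0.39. Other spindle, centrosome and motor genes had a median of -0.49, and 6 of 21 genes passed 2-fold on the lower side, with TACC3 at -1.61, KIF18B at -1.51 and the transport kinesin gene KIF3A highest at 0.47.

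MuvB, DREAM and pocket protein genes had a median of -0.12, and 1 of 12 genes passed 2-fold on the lower side and 1 higher. MYBL2, which encodes B-MYB, was at 42.3 FPKM untreated, 29.7 after CCCP, 35.8 after DHA and 13 after both (log2 -1.66), in the same order of libraries as FOXM1. TFDP1 was at -0.65, and E2F5, an E2F of the repressor class, was highest at 1.01.

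DNA replication genes, set beside the members as the other wave of cell cycle transcription, had a median log2 ratio with the combination of -1.08 over 37 genes, 21 at least 2-fold lower. UHRF1 was lowest at -1.94 and CDT1 highest at -0.22. With CCCP alone their median was -0.53 and 36 of 37 lay below control, against -0.12 and 36 of 53 for the members. With DHA alone it was -0.12, against -0.19. Their median departure from additivity was -0.48, against -0.84. The difference between the 2 lists was not tested.

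**Figure D4:**
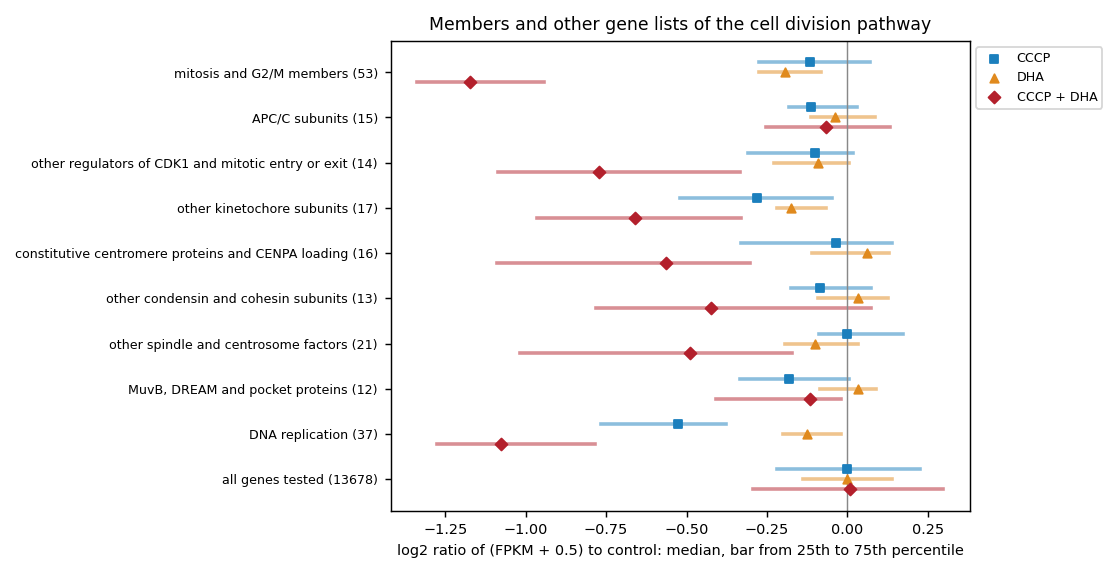
Median log2 ratio of (FPKM + 0.5) to control for the members, 8 other lists of the pathway and all genes tested, with CCCP, DHA and both; bars span the 25th to 75th percentile of genes and the number of measured genes is in parentheses. The members (-1.17) and the DNA replication genes (-1.08) have the lowest medians with the combination, and the APC/C subunits (-0.07) lie near all genes.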

How the data were processed

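RNA from OMM2.3 cells was sequenced in 4 libraries, grouped by the treatment given in the labels, 1 per group. Per the labels' protocols, libraries were made with an Illumina TruSeq RNA kit from total RNA. The authors deposited 1 FPKM value for each of 58735 genes, per the file headers. The sources used here name no aligner, counter or genome build. All gene identifiers matched GENCODE 29, which gave positions and exon lengths. FPKM multiplied by exon length was a whole multiple of 1 step in each library for 100% of genes above 0, within 0.01 reads, and these recovered reads gave depth, counting intervals and the voom alternative.

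Differences were computed on the log2(FPKM + 0.5) scale, for the 13678 genes that reached 1 FPKM in any library. A gene counted as lower if the difference reached 2-fold. Intervals of folds are 95% Clopper-Pearson bounds on the share of a gene's reads that fell in either library. Those of the departure from additivity use the Poisson standard error. Both cover counting error only. The additive fit used limma-trend, with Benjamini-Hochberg adjustment over all genes at 0.05. It was run on simulated data in which each changed gene responded to a single compound, without departure from additivity. That setting differs from the members, which all departed from additivity, so it does not show how the fit performs for them. Promoters came from RefSeq on GRCh38.p14.

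The members, role groups and lists were chosen with earlier results of these data known. All members could be named, with values in every library for the 2 lowest and the highest ratio of the combination to control in each role group of 5 or more, for all members of smaller groups and for the member below the minimum. From each other list the 2 lowest and the highest were named. A gene that this rule also names is not reported here. Alternatives were pseudocounts, filters, scalings and variance models. 2 more, leaving out members that share exon sequence and calling by intervals, were chosen after seeing the data. No replicate could be left out. Tools were limma 3.58.1 in R 4.3.3, and in Python 3.11.15 scipy 1.17.1, pandas 2.3.3, matplotlib 3.10.9 and numpy 2.4.6.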

Additional observations from a re-analysis of the deposited data

Results flagged for a closer look

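For 12 members the level was above control with CCCP alone and below DHA alone with the combination, and the counting interval excluded 1 in both cases, as for 4.35% of all genes tested. The difference between the 2 effects was not tested, since each rests on 1 library per group. The combination lay below DHA alone by its interval for all 53 measured members. The 12 are therefore all those above control with CCCP beyond counting error, 22.6% against 25.8% of all genes. CENPE was above control with CCCP alone by a log2 ratio of 0.58, and the combination was below DHA alone by -0.74. In the same way ASPM went from 0.40 to -1.02, KIF14 from 0.36 to -0.66, CDC25C from 0.33 to -0.41 and CENPA from 0.29 to -0.96. KIF18A went from 0.20 to -0.58, CDK1 from 0.17 to -1.06, TTK from 0.16 to -0.62 and KIF20B from 0.16 to -1.06. ANLN went from 0.13 to -1.28, CENPF from 0.10 to -1.22 and BUB3 from 0.08 to -0.082. With libraries scaled to equal totals, CENPF and BUB3 no longer lay above control with CCCP. That check used the sign of the ratio alone. The intervals were not recomputed at this scaling, so it is not known how many of the 12 would keep the flag.

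For DHA the same held of KIF18A and of 2.48% of all genes tested. KIF18A was above control with DHA alone by a log2 ratio of 0.26, while the combination was below CCCP alone by -0.51. With equal totals it still lay above control by sign, and its interval was not recomputed.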

How the results depend on the processing

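No paired analysis was possible because each group has 1 library and the labels give no replicate numbers. Medians of the members kept their sign under every alternative run. They ranged from -1.21 to -1.12 for the combination against control, from -0.23 to -0.10 for CCCP, from -0.29 to -0.19 for DHA and from -0.87 to -0.66 for the departure from additivity. Scaling to equal totals moved the CCCP median to -0.23 and the departure to -0.66. This scaling multiplies every gene of a library by the same factor. The medians of all genes moved with it, to -0.09 for CCCP and 0.16 for the departure. With equal totals the additive limma-trend fit called 13 members for CCCP and 11 for DHA, where scaling as deposited called 0. Calls over all 13678 genes went from 13 to 519 for CCCP and from 14 to 409 for DHA. Voom on recovered reads called 30 and 32 members, and 751 and 681 genes in all. Members at least 2-fold lower than DHA alone numbered 26 as reported, 17 with a pseudocount of 1, 14 with equal totals and 14 by an interval wholly below 0.5. Those lower than control with the combination numbered 34 to 40, and 27 of 41 without members that share exon sequence. Beyond this rescaling of all genes, the cause of the shifts was not tested. Depth limits PRC1 most, with 18 to 27 reads.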
